A study of Mus musculus with 24 samples.

Results

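Serum exosome miRNA from mice dosed with toosendanin (TSN) for 21 days was compared with that from mice dosed for 9 days, over all mouse miRNAs of one array design. Toosendanin, a plant triterpenoid from the genus Melia, is toxic to the liver when the dose is high. The comparison took the 4 arrays labelled TSN day 21 and the 4 labelled TSN day 9 out of 24 arrays in the series, and the 436 miRNAs, of 1881 on the array, whose signal exceeded background clearly (well above background) throughout the 4 arrays of either group or of both. Both groups were male BALB/c mice given 80 mg/kg, with serum taken 24 hours after the last dose, and they differed in the number of days of exposure. The other 16 arrays held TSN day 3 and the controls of days 21, 9 and 3, with 4 arrays in each of the 6 groups. The labels give neither age nor what the controls received, nor whether RNA was pooled over animals. The p-values therefore describe only how these arrays scatter, and that scatter may be technical. The series title names miR-106b-5p, vimentin and adaptation of the liver to drug injury, and the day 21 against day 9 comparison follows the miRNAs within continued exposure.

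Exosomes are small vesicles that cells release into blood, and they carry miRNAs, short RNAs that lower the output of messenger RNAs. A miRNA recognises its targets mainly through its seed, bases 2 to 8 from the 5′ end, so miRNAs with one seed form a family. Serum miRNA comes from many tissues: some miRNAs are made largely in hepatocytes, others in muscle, in developing red cells or in platelets, and damage or breakdown of a tissue can release its miRNAs.

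The following mature sequences belong to the miRNAs on which the results turn, printed 5′ to 3′ with the seed in capitals. They are RefSeq's on mouse build GRCm38.p6, where 366 of the 436 miRNAs tested had a mature sequence. The first lines show the families of the miRNA in the series title, together with miR-93-5p and with miR-25-3p from the same gene.
miR-106b-5p: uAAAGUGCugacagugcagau
miR-93-5p: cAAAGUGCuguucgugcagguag
miR-20a-5p: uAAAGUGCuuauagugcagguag
miR-17-5p: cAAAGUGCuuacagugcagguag
miR-25-3p: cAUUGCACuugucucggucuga
miR-92a-3p: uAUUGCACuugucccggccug
The next lines show the miR-15/16 family, then 3 members of the miR-130 and miR-301 family that share a seed and did not change alike, and last the muscle miRNA with the largest difference.
miR-15a-5p: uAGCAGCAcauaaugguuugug
miR-15b-5p: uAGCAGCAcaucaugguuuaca
miR-16-5p: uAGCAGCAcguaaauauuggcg
miR-130a-3p: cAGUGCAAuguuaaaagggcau
miR-301a-3p: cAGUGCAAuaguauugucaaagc
miR-721: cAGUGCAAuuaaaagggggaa
miR-133b-3p: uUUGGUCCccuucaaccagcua
miR-106b-5p lies at chr5:138165787-138165807 on the minus strand, miR-93-5p at chr5:138165574-138165596 and miR-25-3p at chr5:138165332-138165353, all within the span of Mcm7, a gene of the DNA replication helicase. miR-15b-5p lies at chr3:69009775-69009796 and one copy of miR-16-5p at chr3:69009918-69009939, both within Smc4, a condensin gene. miR-15a-5p lies at chr14:61632075-61632096 within the noncoding gene Dleu2, miR-721 at chr5:136375777-136375797 within Cux1, and miR-133b-3p at chr1:20682834-20682855 within the noncoding gene Lincmd1.

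All 8 arrays were on one slide and in one scan, TSN day 21 in the second row of the slide and TSN day 9 in the first, so slide row and day cannot be told apart. A level below is the log2 of a miRNA's background-subtracted signal after division by the array's 75th percentile, taken over 735 probes that passed the background test on every one of the 8 arrays, and a change is the difference of the group means of these levels, TSN day 21 minus TSN day 9. Between 437 and 468 miRNAs were well above background on TSN day 21, and between 426 and 447 on TSN day 9 (exact two-sided permutation p = 0.114). Before scaling, the 75th percentile averaged 8.50 ± 0.25 on TSN day 21 and 8.38 ± 0.14 on TSN day 9 on the log2 scale (SD, n = 4 each, exact permutation p = 0.429). The labelling spike-ins, which are added before labelling, averaged 10.6 ± 0.079 on TSN day 21 and 10.3 ± 0.122 on TSN day 9, a difference of 0.30 that reached the smallest p the 70 allocations allow (exact permutation p = 0.0286, adjusted p = 0.1 over 7 array measures). Their part in the results below was not tested.

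Of the 436 miRNAs tested, 229 (52.5%) passed the limma test at an adjusted p of 0.05. The level was higher on TSN day 21 for 125 miRNAs (28.7%) and lower for 104 (23.9%), and the groups did not overlap for 195 miRNAs (44.7%). Among the 393 tested miRNAs well above background on all 8 arrays 205 were called, 109 higher and 96 lower. The other called miRNAs entered the test only through the group where they were brighter, so their calls lend no support. The median change over all 436 was 0.08. Among the called miRNAs, 28 were higher by over 1 on the log2 scale and 32 were lower by over 1. The split between directions moved with the scaling: scaling at all probes gave 94 higher and 129 lower, scaling at the spike-ins 67 higher and 88 lower, and scaling at the 264 probes that passed the background test on each of the 24 arrays 191 higher and 67 lower. The last of these moved the median of all miRNAs by 0.25. One fit of all 24 arrays, which uses that same scaling, gave 144 higher and 58 lower.

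**Figure D1:**
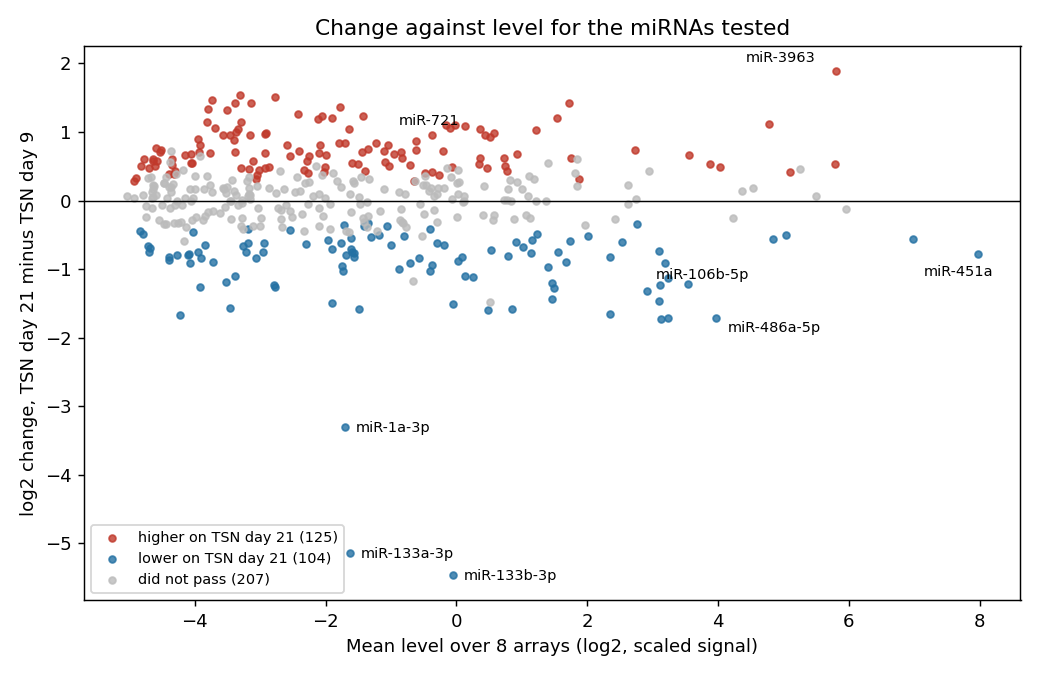
Change of each of the 436 miRNAs tested (TSN day 21 minus TSN day 9, log2) against its mean level over the 8 arrays (log2 of the scaled signal). Red points passed the test as higher on TSN day 21 (125), blue points as lower (104) and grey points did not pass (207); the muscle miRNAs miR-133b-3p, miR-133a-3p and miR-1a-3p lie far below all others.

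miR-106b-5p fell. Its level on TSN day 21 was 2.52, 2.26, 2.02 and 2.19 on the 4 arrays, against 3.77, 3.88, 3.08 and 3.57 on TSN day 9. Every TSN day 21 array was below every TSN day 9 array. The change was -1.32 (SE 0.187, limma adjusted p = 0.000548), a level 2.50-fold lower on TSN day 21.

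The 3 miRNAs of the Mcm7 span fell together. miR-93-5p, which shares the seed of miR-106b-5p, had levels of 1.23, 0.71, 0.72 and 0.76 on TSN day 21, against 2.25, 2.36, 1.70 and 2.26 on TSN day 9 (change -1.28, SE 0.180, adjusted p = 0.000537). miR-25-3p, which has another seed, had 2.07, 1.40, 1.37 and 1.28 on TSN day 21, against 3.30, 3.27, 2.85 and 3.29 on TSN day 9 (change -1.65, SE 0.191, adjusted p = 0.00047). The groups did not overlap for either miRNA, and in both the first TSN day 21 array was the highest of its group and the third TSN day 9 array the lowest of its group.

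The clusters of the wider miR-17 superfamily, on chromosomes 5, 14 and X, are known as promoters of cell proliferation. In this superfamily 8 of 11 tested members were lower (72.7%, against 23.9% over all), none was higher and 3 did not pass. The median change was -0.90, against 0.08 over all miRNAs tested. miR-92a-3p, with the seed of miR-25-3p, had levels of 2.58, 2.64, 2.23 and 2.02 on TSN day 21, against 4.03, 4.26, 3.24 and 3.82 on TSN day 9 (change -1.47, adjusted p = 0.000745). miR-19a-3p changed by -1.10 (adjusted p = 0.00143), miR-19b-3p by -0.90 and miR-20a-5p by -0.60. miR-20a-5p lost its call without the first TSN day 9 array (adjusted p = 0.0537), the second (0.0575) or the third TSN day 21 array (0.0566). The number of superfamily members lower was 6 to 11 when 1 array was left out, and 11 without the third TSN day 9 array. The chromosome 14 cluster itself was uneven, with 5 of its 8 tested products called lower. Of these, miR-18a-3p was well above background on no TSN day 21 array. It entered the test through TSN day 9 alone, so its call lends no support. miR-17-5p, with the seed of miR-106b-5p, had a change of -0.44 (adjusted p = 0.0705), miR-18a-5p one of -0.31 and miR-17-3p one of -0.14. Over the 5 tested miRNAs with the seed AAAGUGC the changes ran from -1.32 to -0.44, and 4 were lower.

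The miR-15/16 family, which restrains the cell cycle through cyclin genes, had 5 of 6 tested members lower (83.3%, against 23.9% over all). The median change was -0.97. The count was 3 without scaling, with the scaling and the fit of 24 arrays and when all miRNAs were tested. miR-15a-5p had levels of 2.60, 2.34, 2.08 and 2.01 on TSN day 21, against 4.09, 4.21, 3.64 and 4.01 on TSN day 9. The groups were over 1 apart at their nearest arrays, and the change was -1.73 (SE 0.172, adjusted p = 0.000444). miR-15b-5p had 3.24, 3.03, 2.77 and 2.69 on TSN day 21, against 4.32, 4.32, 3.81 and 4.16 on TSN day 9 (change -1.22, SE 0.167, adjusted p = 0.000537). miR-16-5p, made from copies beside both, changed by -1.23 (SE 0.170, adjusted p = 0.000537). miR-497a-5p and miR-195a-5p, neighbours on chromosome 11, fell by less, with changes of -0.71 and -0.64, and miR-322-5p of chromosome X had a change of -0.39 that did not pass. All 3 tested products of the Smc4 span were lower, miR-15b-3p among them with a change of -1.19.

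**Figure D2:**
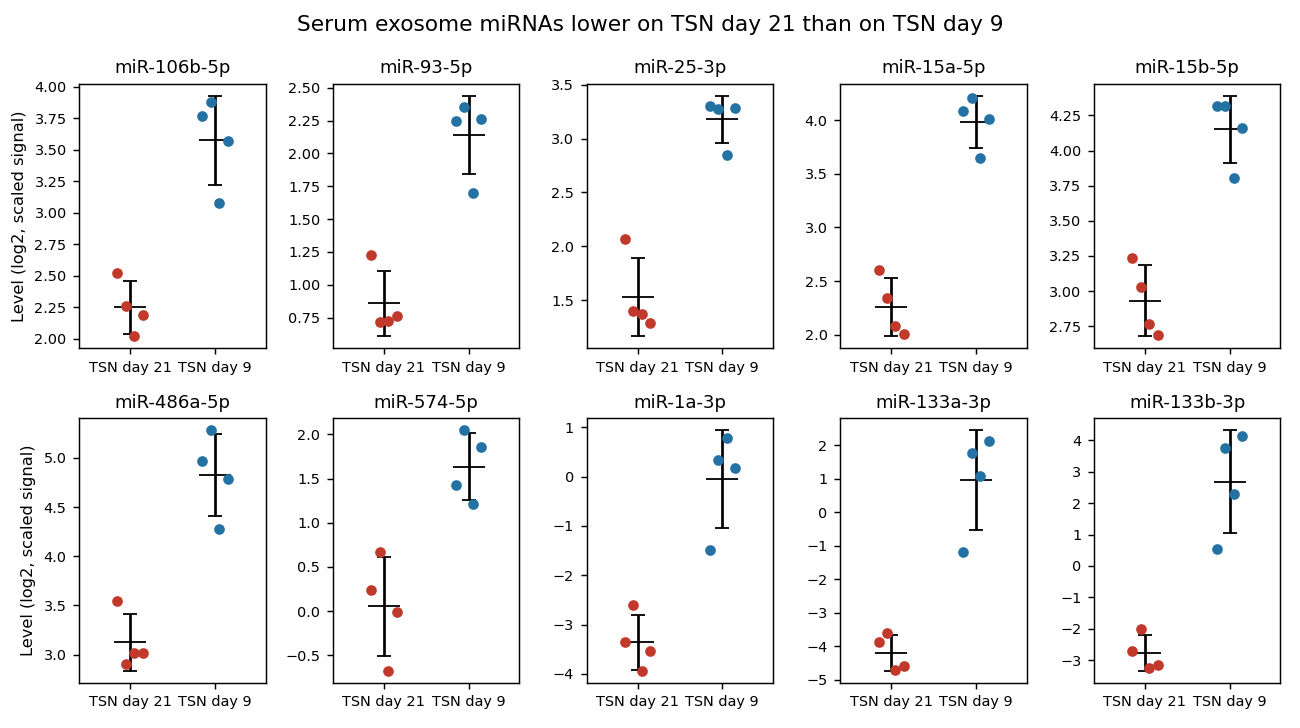
Level (log2 of the scaled signal) on each array for 10 miRNAs that were lower on TSN day 21 (red, left) than on TSN day 9 (blue, right), with the mean and SD of 4 arrays; each panel has its own axis. In none of the 10 do the groups overlap, which was a condition for naming some of them, and the 3 muscle miRNAs have the widest spread on TSN day 9.

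Muscle miRNAs showed the largest differences of all. miR-1 and miR-133 are made in skeletal and heart muscle, where they guide differentiation. miR-133b-3p had levels of -2.71, -2.01, -3.25 and -3.16 on TSN day 21, against 0.54, 3.75, 2.28 and 4.16 on TSN day 9, a change of -5.46 (SE 0.678, adjusted p = 0.000484) or 44.1-fold lower on TSN day 21. miR-133a-3p had -3.87, -3.61, -4.71 and -4.58 on TSN day 21, against -1.19, 1.77, 1.09 and 2.12 on TSN day 9 (change -5.14, SE 0.621, adjusted p = 0.000474). miR-1a-3p had -3.36, -2.60, -3.94 and -3.53 on TSN day 21, against -1.49, 0.33, 0.77 and 0.17 on TSN day 9 (change -3.30, SE 0.452, adjusted p = 0.000537). With the software's total gene signal miR-133b-3p kept its call (-5.35), while miR-133a-3p had -2.33 (adjusted p = 0.201) and miR-1a-3p -1.85 (adjusted p = 0.193), so 1 of the 3 was then called. In the probe levels the first TSN day 9 array was the lowest of its group for all 3, and still above every TSN day 21 array. The fourth tested miRNA of the muscle and heart list, miR-378a-3p, which many tissues express, had a change of 0.36 (adjusted p = 0.359), and none of the 8 arrays had miR-206-3p, miR-208a-3p, miR-208b-3p or miR-499-5p, the list's other 4, well above background. Near-identical miRNAs such as miR-133a-3p and miR-133b-3p may not be kept apart by array probes.

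On the scale of the 24-array fit, miR-133b-3p was highest on TSN day 9. miR-133b-3p averaged -3.83 ± 0.64 on TSN day 3, 0.50 ± 1.62 on TSN day 9 and -4.70 ± 0.57 on TSN day 21 (SD, n = 4 each), while 1 of the 12 control arrays was well above background for it. In the same fit miR-106b-5p averaged 0.29 ± 0.29 on TSN day 3, 1.39 ± 0.20 on TSN day 9 and 0.33 ± 0.20 on TSN day 21, against -1.08 ± 0.29, -0.97 ± 0.37 and -0.73 ± 0.25 in the controls of the same days. TSN days 3 and 21 lay within 1 SD of each other for miR-106b-5p. TSN day 3 and each control group stood on another slide than TSN days 9 and 21, so slide cannot be told apart from group in these levels.

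Red cell miRNAs fell as a group. miR-451a and miR-144, from one locus, and miR-486a are abundant in red cells and their precursors. Of the 8 miRNAs of the red cell list 7 were lower (87.5%, against 23.9% over all), with a median change of -1.25. The count was 5 with quantile normalization and with normexp background. It was 6 with the authors' values, in the fit of 24 arrays and when all miRNAs were tested. miR-451a had levels of 7.80, 7.67, 7.23 and 7.62 on TSN day 21, against 8.60, 8.52, 7.96 and 8.39 on TSN day 9 (change -0.78, SE 0.176, adjusted p = 0.0051). miR-486a-5p had 3.55, 2.91, 3.02 and 3.02 on TSN day 21, against 4.97, 5.28, 4.28 and 4.79 on TSN day 9 (change -1.71, SE 0.220, adjusted p = 0.000536). In both the groups did not overlap. miR-144-3p changed by -1.14 (adjusted p = 0.00143), while its partner strand miR-144-5p had a change of -0.16 (adjusted p = 0.587).

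All 8 red cell miRNAs were well above background on all 8 arrays, and the log2 of their summed scaled signal was 7.46 to 8.02 on TSN day 21 and 8.26 to 8.90 on TSN day 9. The difference of miR-451a and miR-23a-3p, a common measure of red cell breakdown in serum, averaged 3.48 ± 0.25 on TSN day 21 and 4.02 ± 0.18 on TSN day 9 (SD, n = 4 each, exact permutation p = 0.0286, the smallest possible, adjusted p = 0.1). The red cell list shares miR-16-5p with the miR-15/16 family and miR-25-3p and miR-92a-3p with the miR-17 superfamily, and its part in their lower levels was not tested. Fewer vesicles of one source and less of a miRNA in each vesicle cannot be told apart in bulk serum.

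The miR-130 and miR-301 family moved in both directions. miR-130a-3p, miR-130b-3p, miR-301a-3p and miR-301b-3p were lower (80%, against 23.9% over all). miR-721 was higher, so all 5 tested members passed (against 52.5% over all). The count lower was 3 with quantile normalization, normexp background and the authors' values. It was also 3 in the fit of 24 arrays and when all miRNAs were tested. miR-301a-3p had levels of -0.09, -0.15, -0.39 and -0.61 on TSN day 21, against 0.97, 0.87, 0.52 and 0.87 on TSN day 9 (change -1.12, SE 0.155, adjusted p = 0.000537). miR-721, with the same seed, had 0.62, 0.84, 0.94 and 1.13 on TSN day 21, against -0.05, -0.40, -0.00 and -0.20 on TSN day 9 (change 1.04, SE 0.146, adjusted p = 0.000537). Neither pair of groups overlapped. These members share the seed and differ in the bases after it.

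The other seed families with at least 2 tested members gave uneven counts. All 3 members of the miR-29 family, which lowers collagen output, were lower (against 23.9% over all). miR-29a-3p had levels of 2.88, 2.88, 2.68 and 2.49 on TSN day 21, against 3.70, 3.79, 3.24 and 3.83 on TSN day 9 (change -0.91, adjusted p = 0.00152), miR-29b-3p changed by -0.57 and miR-29c-3p by -0.83. miR-29a-3p was no longer called with quantile normalization, normexp background or the authors' values. Of the pair miR-103 and miR-107, miR-107-3p was lower (change -1.20, adjusted p = 0.000549) and miR-103-3p had a change of 0.19 (adjusted p = 0.401). The let-7 family, which restrains growth genes, had 2 of 9 tested members lower (22.2%, against 23.9% over all) and 1 higher. let-7i-5p changed by -0.83 (adjusted p = 0.00416) and let-7e-5p by 0.71 (adjusted p = 0.00997), although the software's total gene signal gave let-7e-5p -0.46. In the miR-23/27/24 clusters none of 7 tested members passed, with changes of -0.46 to -0.06 and 3 were lower when scaled at all probes.

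**Figure D3:**
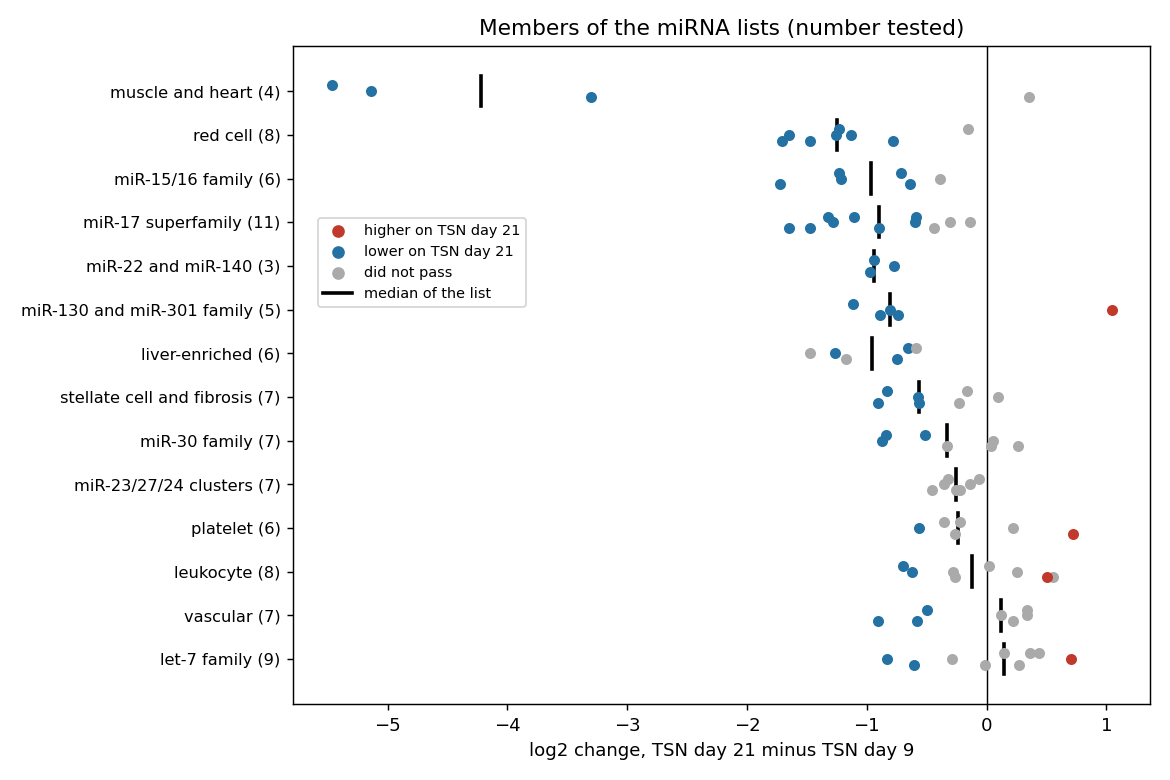
Change of each tested member (points) of 14 miRNA lists, with the number tested in brackets and the list's median as a black bar; the axis is the log2 change, TSN day 21 minus TSN day 9. Red points were higher and blue points lower on TSN day 21, and grey points did not pass; the muscle and heart list and the red cell list have the lowest medians.

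Hepatocyte miRNAs did not move as one. Of 6 tested miRNAs of the liver-enriched list, 3 passed (50%, against 52.5% over all miRNAs), all lower: miR-101b-3p (change -1.27, SE 0.175, adjusted p = 0.000537), miR-101a-3p (-0.75) and miR-148a-3p (-0.66). miR-122-5p, the most abundant miRNA of hepatocytes and a serum marker of their injury, had levels of -1.51, -1.15, -0.84 and -1.48 on TSN day 21, against -1.61, -0.05, -1.87 and 3.23 on TSN day 9. The groups overlapped, and the fourth TSN day 9 array stood above all others. The change was -1.17 (SE 0.922, adjusted p = 0.303), and -0.07 (adjusted p = 0.904) without that array. miR-192-5p, also rich in liver, had -0.07, 0.13, -0.35 and -0.57 on TSN day 21, against 0.59, 1.04, -0.25 and 3.66 on TSN day 9 (change -1.48, adjusted p = 0.089), and -0.67 (adjusted p = 0.0851) without the fourth TSN day 9 array. miR-193a-3p changed by -0.59 with that array and by -0.10 without it.

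The fourth TSN day 9 array did not stand out in the same way elsewhere: for miR-451a and miR-106b-5p its levels were the third highest of its group. Of the muscle miRNAs, miR-133b-3p (4.16) and miR-133a-3p (2.12) were the highest of the group on this array, while miR-1a-3p was the third highest. The summed level of the 6 liver-enriched miRNAs was 0.94 to 1.41 on TSN day 21 and 1.27 to 4.60 on TSN day 9, where the highest value belongs to that array.

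Other cell type lists changed in part. In the list for hepatic stellate cells and fibrosis 4 of 7 were lower (57.1%, against 23.9% over all), namely the 3 miR-29 members and miR-21a-5p. The count was 2 without scaling, with the authors' values, with the total gene signal and in the fit of 24 arrays, and 1 when all miRNAs were tested. miR-29b-3p lost its call in 7 of 15 alternatives and miR-21a-5p in 5. miR-21a-5p, induced in many injured tissues, had levels of 4.46, 4.86, 4.49 and 4.41 on TSN day 21, against 5.38, 5.17, 4.77 and 5.16 on TSN day 9, so the groups overlapped (change -0.57, SE 0.161, adjusted p = 0.0146). Of 6 platelet miRNAs 1 was lower (miR-21a-5p) and 1 higher (miR-26a-5p, change 0.72, adjusted p = 0.0155), and miR-223-3p, abundant in platelets and myeloid cells, had a change of -0.26 (adjusted p = 0.285). The platelet shares were 16.7% lower and 16.7% higher, against 23.9% and 28.7% over all. Of 8 leukocyte miRNAs 2 were lower, miR-342-3p and miR-146a-5p, and miR-181a-5p was higher. miR-181a-5p was well above background on 7 of the 8 arrays and entered the test through TSN day 21 alone, so its call lends no support. One of its probes changed by 0.50 and the other by 0. Its call was lost in 5 of 14 alternatives and its sign turned in 1. In the limma fit of 24 arrays its change was 0.007 (adjusted p = 0.994). The 25% lower is close to the 23.9% over all miRNAs, and miR-146a-5p lost its call in 8 of 15 alternatives and in 5 of the 8 fits that left out 1 array. The list had 0 lower without scaling, with normexp background, with the authors' values and in the fit of 24 arrays, among others. The medians of both lists, -0.24 for platelets and -0.12 for leukocytes, changed sign with quantile normalization, normexp background, the authors' values and the scaling and fit of 24 arrays, and the leukocyte median also without the fourth array of TSN day 9 or of TSN day 21.

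Of 7 vascular miRNAs 3 were lower (42.9%, against 23.9% over all), miR-10b-5p, miR-222-3p and miR-221-3p, while the endothelial miR-126a-3p had a change of 0.22 (adjusted p = 0.242). These calls turned with the setting: 1 was lower without scaling, 2 were higher and 1 lower with scaling at the probes of 24 arrays, and 2 were higher and 0 lower in the fit of 24 arrays. Both tested brain-list miRNAs, miR-128-3p and miR-219a-5p, were lower (against 23.9% over all), but neither passed without scaling. Of 3 tested epithelial miRNAs miR-215-5p and miR-10a-5p were lower (66.7%, against 23.9% over all) with adjusted p = 0.0444 and 0.0263, and each lost its call in 5 or more of the 8 fits that left out 1 array. In the miR-30 family 3 of 7 were lower (42.9%, against 23.9% over all), and 0 when all miRNAs were tested. All 3 tested members of a list of miR-22 and miR-140 were lower (against 23.9% over all), but 2 with normexp background and 1 when all miRNAs were tested. miR-140-5p lay between -1.02 and -0.64 on TSN day 21, against -0.34 to 0.29 on TSN day 9 (change -0.94, adjusted p = 0.00184). No miRNA of the pancreas list was tested.

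The miRNAs that rose were mostly sparsely studied entries, and no role is given for them here. miR-3963, at chr3:151023839-151023857, had levels of 6.61, 6.55, 6.86 and 6.94 on TSN day 21, against 4.76, 4.31, 5.25 and 5.09 on TSN day 9. It was among the brightest miRNAs measured, its groups did not overlap, and its change of 1.89 (SE 0.203, adjusted p = 0.000444) was the largest rise of those tested, 3.70-fold. miR-8093 changed by 1.53 and miR-3474 by 1.42, and both were higher on every TSN day 21 array than on any TSN day 9 array. The largest rises, here and below, were named among miRNAs whose groups do not overlap, so that trait lends them no support.

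miR-883a-5p had -2.25, -2.26, -2.33 and -2.86 on TSN day 21, against -3.92, -3.63, -3.76 and -4.11 on TSN day 9 (change 1.43, SE 0.170, adjusted p = 0.00047). miR-882 lay between -1.56 and -0.89 on TSN day 21, against -2.64 to -2.23 on TSN day 9 (change 1.36, SE 0.176, adjusted p = 0.000536), but 0.04 (adjusted p = 0.486) in the authors' deposited values. miR-1931, miR-6401 and miR-1198-5p changed by 1.31, 1.26 and 1.24, all without overlap, and miR-1198-5p lost its call with the total gene signal.

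For miR-300-5p and miR-6934-5p the 2 summaries of the scanner went opposite ways. miR-300-5p had levels of -2.48, -2.63, -2.53 and -3.02 on TSN day 21, against -4.35, -3.83, -4.33 and -3.85 on TSN day 9 (change 1.43, SE 0.176, adjusted p = 0.000484). All 4 of its probes were higher on TSN day 21, by 0.02 to 1.43, but only 1 was well above background on all 8 arrays. The software's own total gene signal for miR-300-5p was 10.5 to 18.8 on TSN day 21 and 192 to 340 on TSN day 9, a change of -4.22 after scaling. miR-6934-5p changed by 1.51 in the probe levels and by -4.97 in the total gene signal. Both of its probes were higher, by 0.18 and 1.51, but only 1 was well above background on all 8 arrays. Of the 229 called miRNAs, 226 had no probe in the direction opposite to the call, and 9 were called in the opposite direction by the total gene signal. Probes with a change of 0, such as 3 of the 4 of miR-882, could not count as opposite, so 226 is not a count of agreeing probes.

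**Figure D4:**
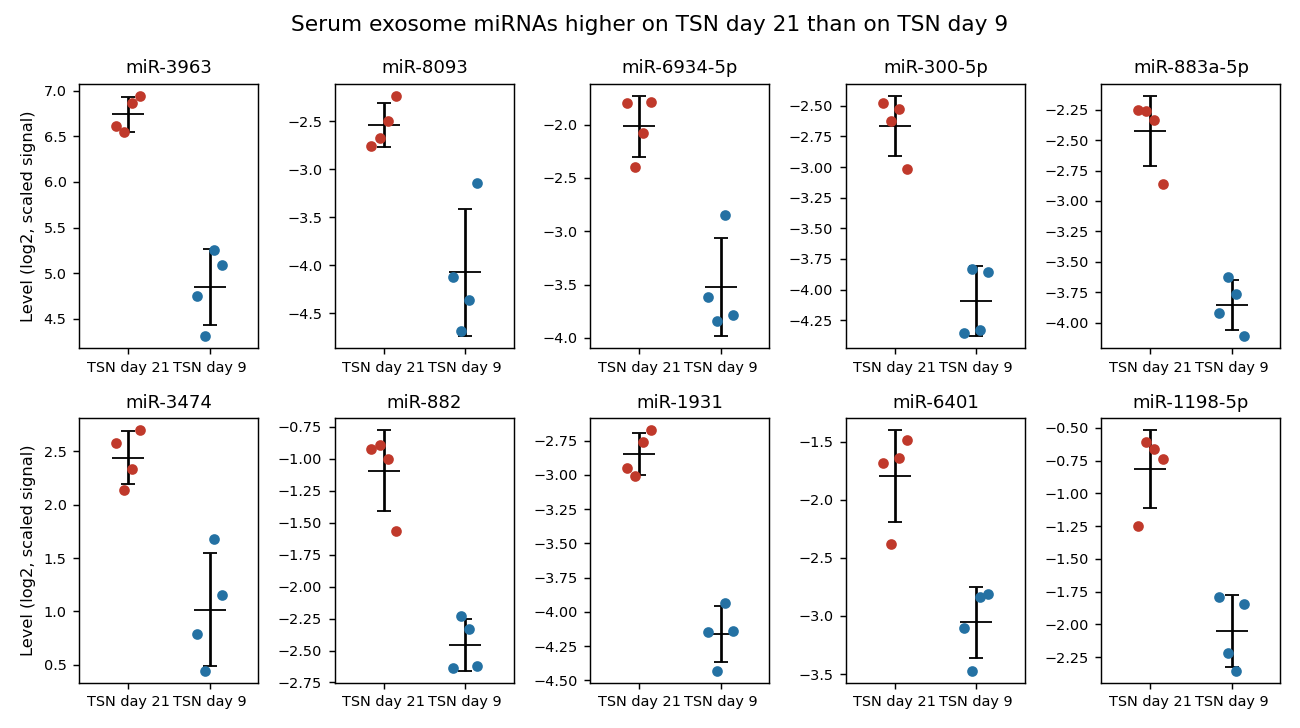
Level (log2 of the scaled signal) on each array for the 10 called miRNAs with the largest rise among those well above background on all 8 arrays whose groups do not overlap, TSN day 21 in red on the left and TSN day 9 in blue on the right, with the mean and SD of 4 arrays; each panel has its own axis. The lack of overlap was thus a condition of the choice.

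By number, 82 of the 194 tested miRNAs numbered 3000 and above, which are late entries of miRBase, were higher (42.3%) and 15 were lower (7.73%). Of the 242 tested miRNAs numbered below 3000, 43 were higher (17.8%) and 89 lower (36.8%). The median changes were 0.30 and -0.25 in these sets, beside 0.08 over all. The lower-called miRNAs with a sequence had a median GC content of 45.5%, against 57.1% for the higher-called and 59.1% for those that did not pass. Among the 36 miRNAs under 40% GC 3 were higher and 19 lower, while among the 138 at 60% and over 42 were higher and 14 lower. Across the 366 miRNAs, which share arrays and labelling, GC content and change correlated with Pearson's r = 0.23 and Spearman's rho = 0.26. This differed in sign by entry number: r was 0.22 over the 200 miRNAs numbered below 3000 and -0.21 over the 166 late entries.

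Runs of simple letters marked some of the largest changes. The sets were chosen after the values were seen, so the counts are a description. The following lines show 4 miRNAs with UGUGUG that fell, then 3 with GAGAGA and 3 with AUCCCA that rose, with the run in capitals.
miR-3082-5p: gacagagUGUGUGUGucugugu
miR-574-5p: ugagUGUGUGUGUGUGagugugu
miR-1187: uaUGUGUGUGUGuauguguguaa
miR-669n: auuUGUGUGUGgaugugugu
miR-883a-5p: ugcuGAGAGAaguagcaguuac
miR-882: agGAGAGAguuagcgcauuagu
miR-3099-3p: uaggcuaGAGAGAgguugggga
miR-3963: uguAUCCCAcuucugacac
miR-5100: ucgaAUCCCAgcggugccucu
miR-3968: cgaAUCCCAcuccagacacca
UGUGUG, searched on the mature strand, occurs in 28 of the 1679 mature miRNAs of the RefSeq table (1.67%) and in 8 of the miRNAs tested. Of these 8, 6 were lower and 1 higher, with a median change of -1.09. Among the 358 tested miRNAs with a sequence but without UGUGUG, 83 were lower. miR-32-3p, 1 of the 6, was well above background on no TSN day 21 array and entered the test through TSN day 9 alone. miR-574-5p, another of the 6, had levels of 0.24, 0.67, -0.68 and -0.02 on TSN day 21, against 1.42, 2.04, 1.21 and 1.85 on TSN day 9 (change -1.58, SE 0.281, adjusted p = 0.00152). GAGAGA occurs in 17 of the 1679 (1.01%) and in 15 tested, of which 12 were higher and 1 lower, with a median change of 0.81. Among the 351 without GAGAGA, 93 were higher. AUCCCA occurs in 7 of the 1679 and in 4 tested. Among the 362 without AUCCCA, 102 were higher. Of the 4 with it 3 were higher and 1, miR-191-5p, did not pass (change -0.22). One of those higher, miR-3968, had probes that changed by 0.84 and 0.04, and its total gene signal went the other way, with 49.8 to 74.97 on TSN day 21 and 2619 to 5320 on TSN day 9. miR-5100 had 5.14, 5.51, 5.40 and 5.31 on TSN day 21, against 4.33, 3.98, 4.33 and 4.24 on TSN day 9 (change 1.12, adjusted p = 0.00047).

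Groups by name and by position were also counted. Of 7 tested miRNAs named miR-297, miR-466, miR-467 or miR-669, most of which come from a large intronic cluster of Sfmbt2, 4 were lower (57.1%, against 23.9% over all). miR-466h-3p was higher (change 0.90, adjusted p = 0.00304). Of the 4, miR-669e-5p was well above background on no TSN day 21 array and entered the test through TSN day 9 alone. Among the 6 that were well above background on all 8 arrays 3 were lower. None of the 7 was called when all miRNAs were tested. miR-669n, which changed by -1.49, lies on chromosome 3 and so outside that gene. In the imprinted Dlk1-Dio3 region of chromosome 12, 5 of the list's 42 miRNAs were tested: 1, miR-370-3p, was higher (change 0.62, adjusted p = 0.0107) and 1, miR-434-3p, was lower. These shares were 20% each, against 28.7% higher and 23.9% lower over all. miR-434-3p entered the test through TSN day 9 alone, being well above background on 1 of 4 TSN day 21 arrays, so its change is not given as a measured size. Its call was lost with the total gene signal (adjusted p = 0.107) and when all miRNAs were tested (adjusted p = 0.0857). By RefSeq position miR-300-5p and miR-882, which are not in the list and were higher by 1.43 and 1.36, lie in the same stretch of chromosome 12, as does miR-3072-5p (change 0.19, did not pass). let-7e-5p and miR-125a-5p, which are neighbours on chromosome 17, were both higher (changes of 0.71 and 0.74), but miR-125a-5p was well above background on 2 of the 4 TSN day 9 arrays. The total gene signal went the other way for both: for miR-125a-5p it was 7.34 to 10.8 on TSN day 21 and 64.8 to 95.1 on TSN day 9.

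For 9 called miRNAs 1 group was not well above background on any array, so only a bound on the difference can be given. On each dim array the bound used the lowest signal that counted as well above background, or the dim signal itself where that was higher. miR-181c-5p was at least 1.48-fold higher on TSN day 21, miR-1962 at least 1.43-fold, miR-3075-5p at least 1.33-fold and miR-6921-5p at least 1.18-fold (adjusted p = 0.0112, 0.0051, 0.00368 and 0.0207 in the limma fit). miR-18a-3p was at least 1.64-fold lower on TSN day 21, miR-32-3p at least 1.61-fold, miR-669e-5p at least 1.57-fold and miR-7654-5p at least 1.40-fold (adjusted p = 0.00802, 0.0207, 0.0129 and 0.0128). All 8 entered the test through the group where they were bright, so these p-values come from that selection and lend the bounds no support. With the total gene signal miR-3075-5p had the opposite sign (-1.98).

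The day difference was set beside that of the control mice in one limma fit of all 24 arrays. In this fit 202 of 435 miRNAs passed for TSN day 21 against TSN day 9 (46.4%). For control day 21 against control day 9 the count was 5 of 435 (1.15%), with 83 at an unadjusted p under 0.05. These control groups were on different slides, so slide and day cannot be told apart there. For control day 9 against control day 3, which shared a slide as the TSN groups did, 60 of 435 passed (13.8%). That count was 22 with quantile normalization and fell away with scaling at all probes (0 by limma, 44 at an unadjusted p under 0.05) and without scaling (0 by limma, 5 unadjusted). The difference between the TSN and the control day effect, tested as an interaction term, passed for 158 of 435 miRNAs (36.3%), and 53 of these had the lower change in TSN mice. Without scaling the interaction count was 42, and scaling at all probes gave 107 for control day 21 against day 9.

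**Figure D5:**
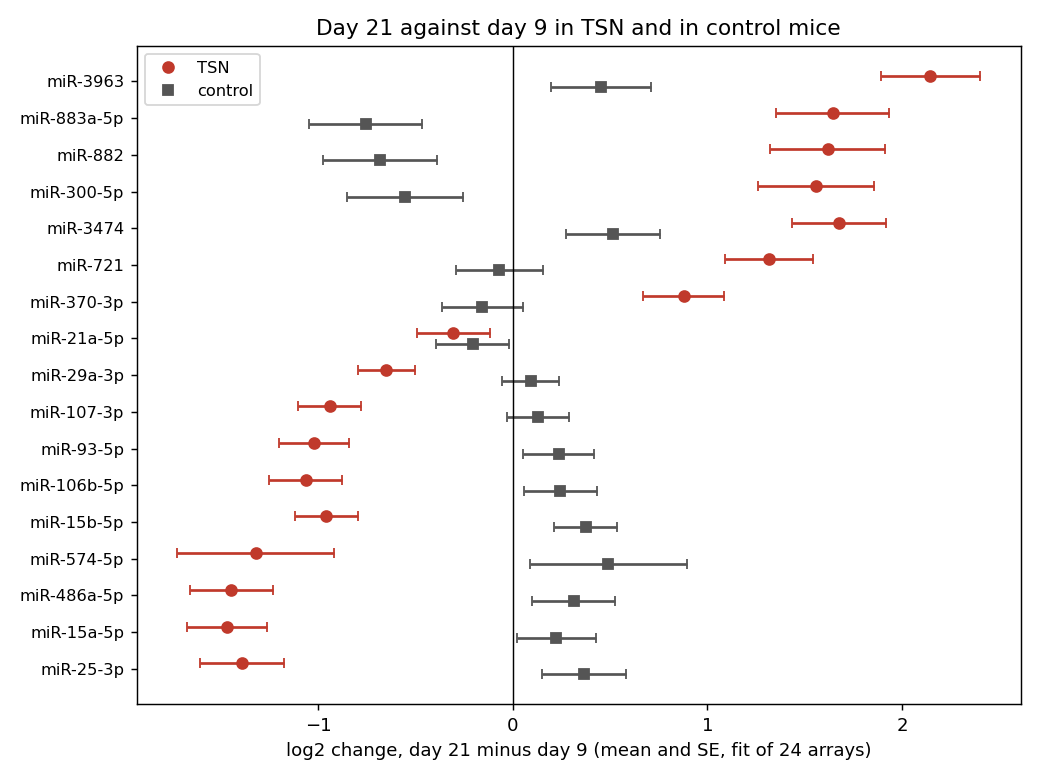
Log2 change of 17 miRNAs, day 21 minus day 9, in TSN mice (red circles) and in control mice (grey squares), with standard errors from the fit of 24 arrays. The TSN and control values of miR-106b-5p (-1.06 and 0.24) and of its neighbours lie on opposite sides of 0, while those of miR-21a-5p (-0.31 and -0.21) lie beside each other.

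For miR-106b-5p the change in this fit was -1.06 in TSN mice and 0.24 in control mice (SE 0.188 each), a difference of -1.31 (adjusted p = 0.0011). For miR-25-3p it was -1.39 in TSN mice and 0.37 in control mice (difference -1.76, adjusted p = 0.000443). For miR-3963 it was 2.15 in TSN mice and 0.45 in control mice (difference 1.69, adjusted p = 0.00144). miR-883a-5p and miR-882 had opposite signs in the arms, 1.64 and 1.62 in TSN mice and -0.76 and -0.68 in control mice (neither control change passed), with differences of 2.40 and 2.30. The interaction did not pass for miR-21a-5p (-0.10, adjusted p = 0.786), miR-101b-3p (-0.33, adjusted p = 0.364) or miR-26a-5p (0.67, adjusted p = 0.117). In this fit miR-101b-3p was at the floor of -6.17 on every TSN day 21 array. It was well above background on 1 control day 21 array and on no control day 9 array, so the floor limits its difference.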

How the data were processed

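Serum exosome RNA was labelled with Cy3 and hybridised to one-colour Agilent mouse miRNA arrays, 4 in each of 6 groups. The deposited scanner files hold intensity values made with Agilent Feature Extraction 10.7.1.1, per the file headers, whose processed signal is background-subtracted. The authors' deposited table of log2 values served as an alternative, and how it was scaled is not given in the sources used here. Spots of a probe were averaged without controls and outlier flags, and no spot was saturated on the 8 arrays. Signals were scaled at the 75th percentile of 735 probes, those well above background on every one of the 8 arrays, signals below a floor of -5.07 (log2) were set to it, and the brightest probe stood for a miRNA. A probe counted as well above background on an array where more than a share of 0.5 of its spots were.

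TSN day 21 was compared with TSN day 9 with limma 3.58.1 (R 4.3.3, lmFit and eBayes, Benjamini-Hochberg adjustment over 436 miRNAs). Array measures were compared by two-sided exact permutation tests. The control comparisons and the interaction came from one limma fit of 24 arrays, scaled at 264 probes. Named miRNAs were miR-106b-5p, the 10 highest and 10 lowest called without overlap and well above background on all 8 arrays, the 4 largest bounds per direction and the 2 smallest adjusted p of each list with at least 2 tested members. Others are given as members of a described list, family, cluster or letter run. Members and lists were chosen with earlier results of these data known. The number of arrays limits the precision. Scripts were tested on simulated data.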

Additional observations from a re-analysis of the deposited data

Results flagged for a closer look

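In 144 groups of 4 arrays, 1 array's gap to its nearest neighbour passed Dixon's critical value in the following cases, and chance alone gives about 1 in 20 groups. The first TSN day 21 array was high for miR-25-3p (level 2.07) and miR-93-5p (1.23) and low for miR-6931-5p (1.99). The third TSN day 9 array was low for miR-25-3p (2.85), miR-93-5p (1.70), miR-140-5p (-0.34) and miR-215-5p (0.12). The fourth TSN day 21 array was low for miR-882 (-1.56) and miR-883a-5p (-2.86). The second TSN day 21 array was high for let-7e-5p (-3.18) and had the fewest miRNAs well above background (437).

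In the fit of 24 arrays the day difference passed the interaction test between TSN and control mice for the following named miRNAs, each value being the TSN change minus the control change (log2, day 21 minus day 9). Among the miR-17 superfamily it was -1.31 for miR-106b-5p, -1.26 for miR-93-5p and -1.76 for miR-25-3p. It was -1.69 for miR-15a-5p, -1.33 for miR-15b-5p, -1.76 for miR-486a-5p, -1.07 for miR-107-3p and -0.80 for miR-301a-3p. For the muscle miRNAs it was -5.63 for miR-133b-3p, -4.66 for miR-133a-3p and -3.54 for miR-1a-3p. On control days 21 and 9, miR-133b-3p was well above background on 1 array and miR-133a-3p on none.

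Among miRNAs with runs of UG or of related name it was -2.08 for miR-3082-5p, -1.81 for miR-574-5p, -1.86 for miR-466i-5p and -0.84 for miR-468-3p. Of other miRNAs lower on TSN day 21, it was -1.51 for miR-6931-5p, -1.07 for miR-10b-5p, -0.88 for miR-101a-3p, -0.85 for miR-30a-3p, -0.82 for miR-215-5p, -0.78 for miR-30b-5p, -0.76 for miR-128-3p and -0.74 for miR-29a-3p. It was -0.84 for miR-468-3p, -0.67 for miR-140-5p, -0.61 for miR-140-3p and -0.67 for let-7i-5p.

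Of the miRNAs higher on TSN day 21, it was 2.40 for miR-883a-5p, 2.30 for miR-882, 2.11 for miR-300-5p, 1.76 for miR-6934-5p, 1.69 for miR-3963, 1.39 for miR-721 and 1.32 for miR-8093. It was 1.16 for miR-3474, 1.07 for miR-6942-5p, 1.03 for miR-370-3p, 0.97 for miR-1198-5p and 0.95 for miR-6401. No array of control days 21 and 9 had miR-6934-5p, miR-8093 or miR-468-3p well above background, so the control side of their differences is set by signals at or near the floor. Others were dim in part. miR-30a-3p was well above background on 1 control day 21 array and miR-6401 on 2, and neither on any control day 9 array. miR-1a-3p and miR-6942-5p were so on 2 control day 21 arrays and 1 control day 9 array. miR-6942-5p was also at the floor on every TSN day 9 array of this fit.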

How the results depend on the processing

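The count of 229 called miRNAs stayed within 1.5 times under every alternative run except testing all 1881 miRNAs, which called 98 (59 higher, 39 lower). The counts by direction moved more: scaling at the probes of 24 arrays gave 191 higher and 67 lower, spike-in scaling 67 higher, no scaling 68 lower and one fit of 24 arrays 58 lower. No scaling moved the median of all miRNAs by 0.11. Leaving out each array in turn gave 184 to 254 called, 98 to 135 higher and 83 to 121 lower. The replicate numbers did not pair the samples (correlations of same-numbered arrays -0.15, 0.57, 0.34 and -0.24, and not every array correlated best with its own number), and the replicate block gave 241 calls. Of the limma counts from 24 arrays, control day 21 against day 9 (5) became 107 with scaling at all probes and 0 without scaling (99 at an unadjusted p under 0.05). Control day 9 against day 3 (60) became 22 with quantile normalization, 0 with scaling at all probes (44 unadjusted) and 0 without scaling (5 unadjusted), and the interaction (158) became 42 without scaling. With the total gene signal, 205 of the 229 called miRNAs kept their sign and 9 were called the other way. Among miRNAs named by the rule the sign turned for let-7e-5p (-0.46), miR-181a-5p (-0.28), miR-300-5p (-4.22), miR-3075-5p (-1.98) and miR-6934-5p (-4.97). miR-99a-5p, not called at -0.11, took 0.15 with the scaling and with the fit of 24 arrays, 0.11 with the mean of probes, 0.099 with the total gene signal, 0.009 without scaling and 0.0078 in the authors' values, and ran from -0.257 to 0.0312 when 1 array was left out. The causes were not tested. Of 1483 recomputed values of named miRNAs 1333 kept direction and side of the threshold, 128 lost the call, 10 gained it and 12 turned sign. Dim signals near the floor limit what can be ranked: 66 of 3488 values were at it.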
